A study of Mus musculus with 8 samples.

Results

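Glucuronosyltransferases, glutathione transferases and sulfotransferases are the main enzymes of conjugation, the step that attaches a polar group to a drug, toxin, steroid, bile acid or bilirubin. The genes described here were chosen by name: all protein-coding genes whose symbol begins with Ugt1, Ugt2, Ugt3, Gst followed by a class letter, Mgst, Sult1 or Sult2. The rule found 61 genes among the 54141 of the table. They are 21 Ugt genes, 22 genes of soluble glutathione transferases (Gst), 3 of membrane-bound glutathione transferases (Mgst) and 15 Sult genes.

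Ugt enzymes sit in the membrane of the endoplasmic reticulum and transfer glucuronic acid from UDP-glucuronic acid. Gst and Mgst enzymes join glutathione to reactive electrophiles, and Sult enzymes transfer sulfate from the donor PAPS. The conjugates leave the cell through ABC transporters, and gut epithelium is known as a site where these enzymes act on compounds of the diet and of bile.

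RNA was sequenced from epithelial cells released with EDTA from the distal colon of mice on the c57bl6/j background. There were 4 libraries labelled wild type (WT) and 4 from mice with both copies of Degs2 mutated (Degs2_KO), the gene of a sphingolipid desaturase and hydroxylase. The comparison asks what differs in these cells when Degs2 is mutated. The labels give neither the nature of the allele nor age, sex or separate mice, and a p-value here compares genotypes with the scatter of these samples, which could be technical.

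Libraries held between 32.8 M and 49.8 M fragments. In CPM (counts per 1000000 after TMM normalization), Degs2 averaged 122 ± 20.1 over the WT libraries and 58.2 ± 9.08 over the Degs2_KO libraries (SD, n = 4 each). Its transcript was still present in Degs2_KO, and with a log2 fold change of -1.07 ± 0.15 (SE) and an adjusted p of 0.796 by edgeR even Degs2 did not pass the threshold of 0.05. Epithelial markers were high in all 8 libraries, with summed levels of 12210 to 15366 CPM for 7 genes. The distal label was less even. Hoxd13, a gene of the most posterior gut, was at 0.695 CPM in WT replicate 1 and 0.30 CPM in Degs2_KO replicate 3, against 38.8 to 85.3 CPM in the other 6 libraries, and Hoxd12 was at 0 in that pair alone. Where a fold change is printed for a gene named below as highest or lowest in both of these libraries, it is given with and without them. None is printed for Ugt2b38, which fell under the filter on low counts without them, or for Gstk1, Gstz1, Gstm3, the gene model Gm3776 and marker genes. In a bulk sample, fewer cells of a type and less RNA per cell cannot be told apart.

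Of the 61 genes, 34 had a mean of at least 1 CPM, and 12 were at 0 in all 8 libraries. Those 12 were Sult1e1, the oestrogen sulfotransferase, Sult2a1 to Sult2a7 of the hydroxysteroid and bile acid sulfotransferases, Ugt1a10, Ugt2a2, Ugt2b37 and Ugt3a2. A count of 0 allows up to 3 fragments, which is 0.0622 to 0.0948 CPM depending on the library and covers counting error only. The filter on low counts left 38 genes for testing. The other 11 were above 0 in at least 1 library, and 10 of them reached no more than 0.366 CPM, the highest value of Ugt2b1. The remaining one, Sult1a1, was abundant but had a failed estimate in WT replicate 1, so its value there is missing and it stood outside the comparison of all 8 libraries.

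Levels can be compared between genes only per length of exon, and on that scale Mgst3 led. Mgst3, a membrane-bound glutathione transferase and peroxidase, was at 348 ± 43.2 CPM per kilobase (SD over 8 libraries). Sult1a1, the main phenol sulfotransferase, followed at 186 ± 61.5 (SD over 7 libraries). Gsto1, the omega-class enzyme that also reduces dehydroascorbate, was at 174 ± 10.4, and Gstm1, of the mu class, at 157 ± 18.9. The Ugt gene with the highest level per kilobase was Ugt2b34, at 145 ± 14.4. The library ranges of these last 4 genes overlapped, so their order is not fixed beyond the spread. Sult1d1 (99.4 CPM per kilobase), Ugt1a7c (87.9) and Sult1b1 (65.4) came next. The lowest of the 34 was Ugt2b36 at 0.887. Each of the 3 families thus had at least 1 member among the 5 highest.

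**Figure D1:**
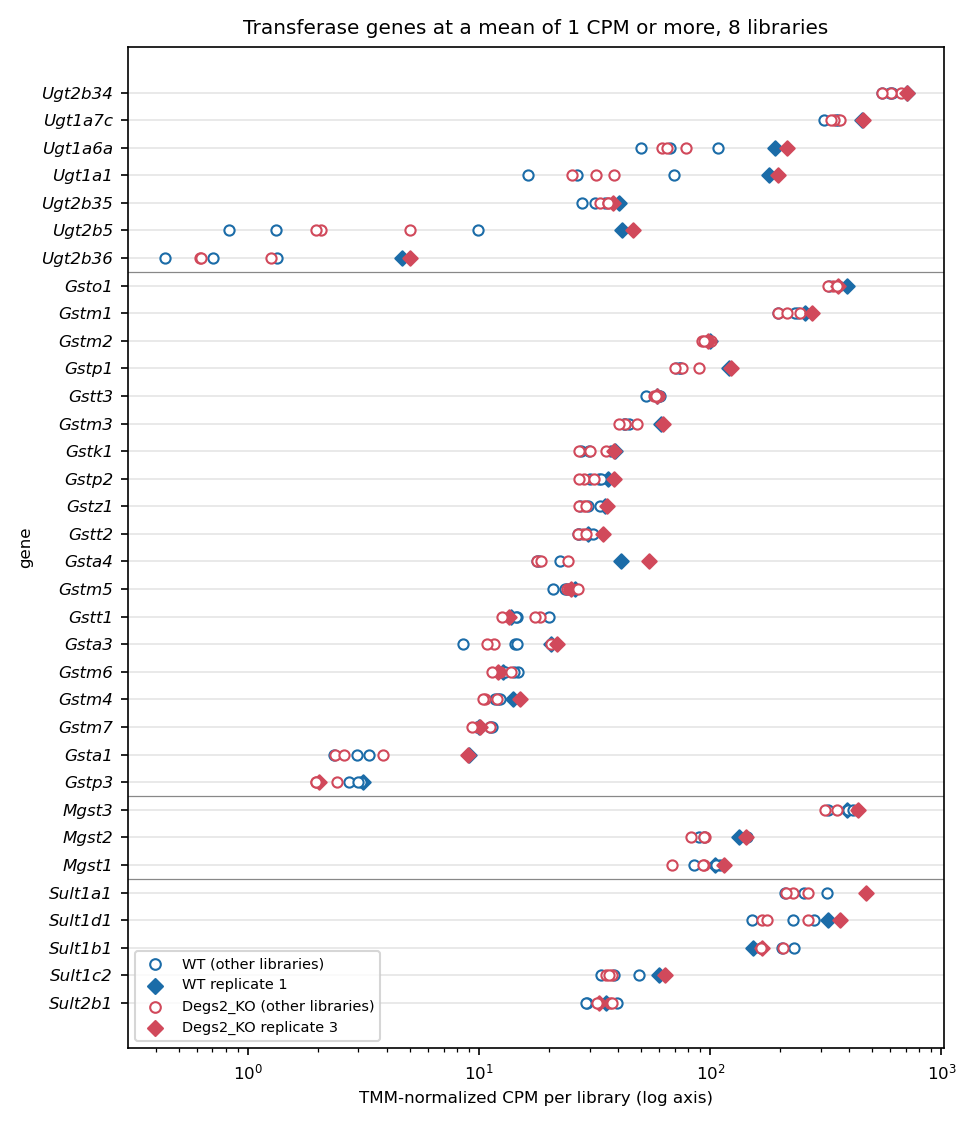
Levels of the 34 transferase genes with a mean of at least 1 CPM, by family, on a log axis of TMM-normalized CPM; each point is 1 library, blue for WT and red for Degs2_KO. Filled diamonds mark WT replicate 1 and Degs2_KO replicate 3, which lie far to the right of the other 6 libraries for Ugt2b5, Ugt1a1, Ugt2b36 and Gsta1, while most Gst genes form a narrow cluster.

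No member passed the test between the genotypes. Of the 38 tested, 0 passed an adjusted p of 0.05 in edgeR's quasi-likelihood test, and of all 16132 tested genes also 0 (0%). At an unadjusted p under 0.05 there were 0 members higher and 1 lower in Degs2_KO, against 0.329% and 0.806% of all genes (1.13% in either direction). DESeq2 called 2 genes (0.0124%), of which 0 were members. Estimates were above 0 for 20 members and below for 18, and 47.4% of all tested genes were above 0. The median log2 fold change was 0.003 for the members and -0.007 for all tested genes.

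How tightly the data bound a difference varied with the gene. The 95% interval around the fold change stayed inside 1.5-fold in both directions for 22 of the 38 members and for 60.4% of all tested genes, and inside 2-fold for 28 members. For the other 10 a 2-fold difference lay inside the interval. The split of directions was not stable: without WT replicate 2 it was 9 above and 29 below 0, without Degs2_KO replicate 3 it was 6 and 32, and without that library and WT replicate 1 it was 13 and 24 of 37.

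**Figure D2:**
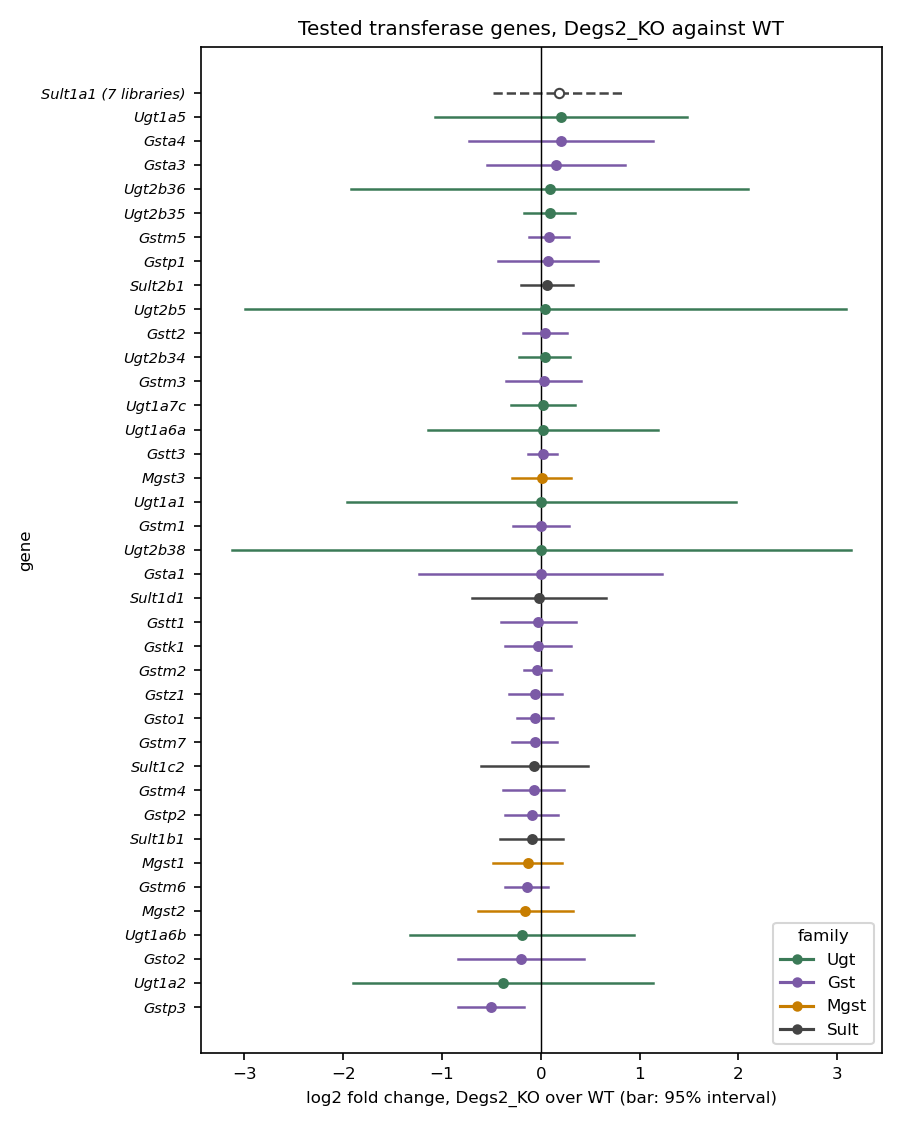
Log2 fold change of Degs2_KO over WT for the 38 tested transferase genes and, as an open point, for Sult1a1 over 7 libraries; bars are 95% intervals and colours mark the family. All intervals but that of Gstp3 cross 0, and the widest belong to Ugt2b38, Ugt2b5, Ugt1a1 and Ugt2b36.

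The glucuronosyltransferases were led in CPM by Ugt2b34, a member of the Ugt2b group that acts on steroids and bile acids. It was at 708, 555, 610 and 597 CPM in WT replicates 1 to 4 and at 670, 606, 707 and 554 CPM in Degs2_KO replicates 1 to 4. The groups overlapped throughout, and the log2 fold change was 0.04 ± 0.11 (SE), and 0.06 ± 0.10 without WT replicate 1 and Degs2_KO replicate 3. Ugt2b34 made up 88.4% to 94.4% of the counts of all Ugt2 genes in a library. Ugt2b35 was at 27.9 to 40.2 CPM, with a log2 fold change of 0.09 ± 0.11, and 0.16 ± 0.10 without this pair.

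The Ugt1 genes lie in 1 locus at chr1:88055388-88220002 (GRCm38, plus strand), where each has a first exon of its own and the later exons are shared. Ugt1a7c was at 453, 312, 349 and 358 CPM in the WT libraries and at 366, 343, 456 and 332 CPM in the Degs2_KO libraries. Its log2 fold change was 0.02 ± 0.14, and 0.04 ± 0.09 without WT replicate 1 and Degs2_KO replicate 3. Ugt1a7c had the most counts of the Ugt1 genes in every library. Ugt1a6a, an enzyme of small phenols, was at 49.996 to 214 CPM, and Ugt1a1, the bilirubin enzyme, at 16.2 to 197 CPM. Ugt1a2, Ugt1a5 and Ugt1a6b had means under 1 CPM and Ugt1a8, Ugt1a9 and Ugt1a10 reached at most 0.221 CPM. With the exons shared, 58.2% of the 50-base runs of Ugt1a1 transcripts, 52.1% of those of Ugt1a6a and 53.7% of those of Ugt1a7c also occur in another gene. The sources used here do not say how such fragments were divided, so levels of single Ugt1 genes are uncertain.

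The makeup of the Ugt1 counts set 2 libraries apart, 1 of each genotype. Ugt1a1 made up 21.7% of them in WT replicate 1 and 22.7% in Degs2_KO replicate 3, but 4.27% to 13.0% in the other 6 libraries. Ugt1a7c made up 55.0% and 52.4% in that pair and 66.7% to 82.3% elsewhere. The library nearest to the pair was WT replicate 4, with a Ugt1a1 share of 13.0%.

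**Figure D3:**
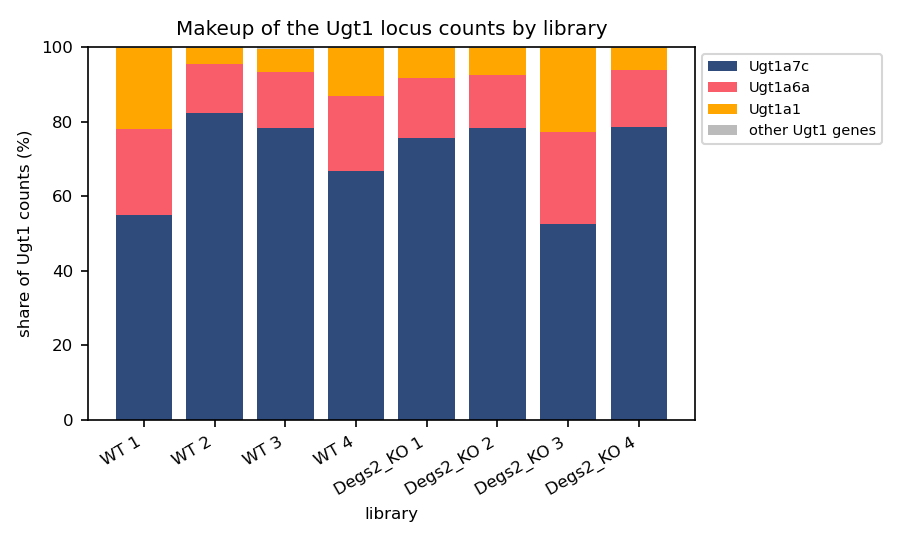
Share of the Ugt1 counts of each library, in percent, that fell to Ugt1a7c, Ugt1a6a, Ugt1a1 and the other Ugt1 genes. Bars sum to 100%, and the orange part for Ugt1a1 is widest in WT replicate 1 (21.7%) and Degs2_KO replicate 3 (22.7%).

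Among members with a mean of at least 1 CPM, the 6 with the largest spread over the 8 libraries were Ugt2b5, Ugt1a1, Ugt2b36, Gsta1, Ugt1a6a and Gsta4. Ugt2b5 had a larger SD of log2 CPM than 99.8% of tested genes, and Gsta4, the last of the 6, a larger one than 89.4%. The bases before the start sites of 5 of them are shown because these genes were high in the same libraries. They are the 250 bases before the RefSeq start, on build GRCm38.p6 and written 5′ to 3′ along the gene, at chr5:87140341-87140590 (minus strand) for Ugt2b5, chr5:87092556-87092805 (minus) for Ugt2b36, chr1:88211709-88211958 (plus) for Ugt1a1, chr1:88134559-88134808 (plus) for Ugt1a6a and chr9:78230419-78230668 (plus) for Gsta1. In the Ugt2b lines capitals mark the longest run that both share, and in the Ugt1a lines the match to GTTAAT on the opposite strand.
Ugt2b5: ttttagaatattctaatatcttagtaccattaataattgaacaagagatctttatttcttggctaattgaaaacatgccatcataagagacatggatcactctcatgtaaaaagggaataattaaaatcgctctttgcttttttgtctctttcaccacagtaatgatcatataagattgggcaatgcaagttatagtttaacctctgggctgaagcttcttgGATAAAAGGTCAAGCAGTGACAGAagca
Ugt2b36: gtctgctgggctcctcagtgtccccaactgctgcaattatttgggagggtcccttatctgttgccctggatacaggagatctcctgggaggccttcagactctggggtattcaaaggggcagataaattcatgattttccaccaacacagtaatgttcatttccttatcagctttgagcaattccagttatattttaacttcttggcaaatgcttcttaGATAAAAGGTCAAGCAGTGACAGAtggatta
Ugt1a1: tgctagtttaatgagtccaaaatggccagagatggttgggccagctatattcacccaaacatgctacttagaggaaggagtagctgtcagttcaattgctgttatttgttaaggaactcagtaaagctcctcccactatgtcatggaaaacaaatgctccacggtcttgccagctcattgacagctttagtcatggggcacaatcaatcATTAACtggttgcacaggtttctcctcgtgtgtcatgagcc
Ugt1a6a: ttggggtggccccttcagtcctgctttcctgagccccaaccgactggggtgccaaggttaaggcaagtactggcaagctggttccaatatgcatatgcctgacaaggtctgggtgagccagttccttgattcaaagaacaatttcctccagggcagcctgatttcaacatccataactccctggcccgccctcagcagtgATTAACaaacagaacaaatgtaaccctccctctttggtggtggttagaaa
Gsta1: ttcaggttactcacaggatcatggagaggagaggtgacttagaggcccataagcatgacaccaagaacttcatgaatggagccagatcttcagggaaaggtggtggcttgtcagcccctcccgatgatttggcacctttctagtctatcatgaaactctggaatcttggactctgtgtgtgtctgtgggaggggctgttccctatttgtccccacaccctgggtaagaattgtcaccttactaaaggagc

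The run shared by Ugt2b5 and Ugt2b36 is 24 bases long and begins 28 and 31 bases before the start. Among all RefSeq windows of 250 bases before to 50 after a start, on either strand, 3 genes hold it. The third is Ugt2b37, which was at 0 in all 8 libraries. The windows of Ugt2b5 and Ugt2b36 were 62.2% identical after alignment, against 46.1% to 52.0% for the other pairs of the 5. GTTAAT, the half-site of the gut and liver factors Hnf1, was found in the Ugt1a1 window from position -41 and in the Ugt1a6a window from position -50, counted back from the start. It occurs on either strand in 7.10% of 32851 windows, and in those of 5 of the 32 members with a mean of at least 1 CPM and a window. GCGTG, the core recognised by the Ah receptor, began at position -2 of Gsta1 and runs past its start, so it is not marked. It occurs in 32.4% of all windows and in 9 of those 32. Of the other motifs searched, TGACNNNGC, the core of the antioxidant response element, occurs in 12.4% of windows and 4 of the 32, and TTTATG, the Cdx2 core, in 11.9% and also 4. Neither was found in the 5 windows. These matches describe letters alone.

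Ugt2b5 showed the pattern most sharply. It was at 41.4, 0.830, 1.31 and 9.88 CPM in the WT libraries and at 4.99, 2.06, 46.2 and 1.96 CPM in the Degs2_KO libraries. WT replicate 1 and Degs2_KO replicate 3 thus stood 4.19-fold or more above any other library, WT replicate 4 was next, and the groups overlapped over their whole range. The log2 fold change between genotypes was 0.05 ± 1.34, with a 95% interval of -3.00 to 3.09 that leaves its direction undefined. The estimate was -2.15 without Degs2_KO replicate 3, 1.80 without WT replicate 1 and -0.42 without both. Ugt2b38, named here after its values were seen because its mean of 0.967 CPM lies below the level for naming, followed the same order. It was at 2.97 CPM in WT replicate 1 and 3.40 CPM in Degs2_KO replicate 3. The others lay between 0.0415 and 0.777 CPM, of which WT replicates 2 and 3 and Degs2_KO replicate 4 held no more than 3 fragments. In Ugt2b5 transcripts 41.7% of 50-base runs also occur in another gene, and 34.8% in Ugt2b38, so the division of fragments between these genes is uncertain.

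Ugt2b36 lies between Ugt2b35 and Ugt2b5 in the same cluster, the Ugt2 genes at chr5:86889767-87490871. Only 0.285% of its 50-base runs occur in another gene. It was at 4.61, 0.436, 0.702 and 1.33 CPM in the WT libraries and at 1.26, 0.619, 5.04 and 0.624 CPM in the Degs2_KO libraries, again highest in the same pair. Its log2 fold change was 0.09 ± 0.89, and 0.02 without these 2 libraries.

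Ugt1a1 was at 179, 16.2, 26.5 and 69.7 CPM in the WT libraries and at 38.3, 32.0, 197 and 25.1 CPM in the Degs2_KO libraries, with a log2 fold change of 0.01 ± 0.87. Ugt1a6a was at 190, 49.996, 67.1 and 107 CPM in the WT libraries and at 78.2, 61.6, 214 and 65.2 CPM in the Degs2_KO libraries, with 0.02 ± 0.51. For both genes the highest libraries were Degs2_KO replicate 3 and then WT replicate 1, followed by WT replicate 4. Without the pair the estimates were -0.23 for Ugt1a1 and -0.13 for Ugt1a6a.

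Among the tested glutathione transferases the alpha class genes Gsta1, Gsta4 and Gsta3 had the largest SDs of log2 CPM. Gsta4, which detoxifies the lipid peroxidation product 4-hydroxynonenal, was at 41.2, 17.8, 22.4 and 18.1 CPM in the WT libraries and at 17.8, 24.2, 54.0 and 18.5 CPM in the Degs2_KO libraries (log2 fold change 0.20 ± 0.41). Gsta1 was at 9.04, 2.97, 2.35 and 3.33 CPM in the WT libraries and at 2.38, 3.83, 8.94 and 2.59 CPM in the Degs2_KO libraries (0.001 ± 0.54). Both were highest in the pair, but here Degs2_KO replicate 2 came next, and without the pair the estimates were 0.06 for Gsta4 and 0.02 for Gsta1. Of the 50-base runs of Gsta1, 90.5% also occur in another gene, and 75.7% in the neighbouring gene model Gm3776. Gm3776 was at 2.21 and 2.45 CPM in the pair and 0.521 to 0.917 CPM elsewhere. Gsta4 shared no such run. Gsta3, at 8.50 to 21.6 CPM, had a log2 fold change of 0.16 ± 0.31, and 0.20 ± 0.30 without the pair.

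Counted over all tested members, 20 of 38 (52.6%) were higher in both WT replicate 1 and Degs2_KO replicate 3 than in every other library, against 17.8% of all tested genes. Members lower in both than in every other library numbered 0 of 38, against 16.6% of all tested genes. The 20 comprised 8 of 11 Ugt genes, 10 of 20 Gst genes, 0 of 3 Mgst genes and 2 of 4 Sult genes. The Ugt genes outside this count were Ugt1a2, Ugt1a5 and Ugt1a6b, all under 1 CPM on average. For Gsta3 the margin was nil, with 20.3 CPM both in WT replicate 1 and in Degs2_KO replicate 2. The lower of the pair was 1.03-fold the highest other library for Gstk1, 1.04-fold for Gstz1 and 1.05-fold for Gstm1 and Ugt2b35. It was 1.06-fold for Ugt2b34, 1.07-fold for Gstp2 and 1.14-fold or more for the rest of the 20. Some of the 20 share exons or sequence, such as Ugt1a1, Ugt1a6a and Ugt1a7c, so they are not separate observations. The median SD of log2 CPM was 0.928 for Ugt genes, 0.179 for Gst, 0.244 for Mgst and 0.284 for Sult, against 0.223 for all tested genes. The Ugt median was the value of Ugt1a5, a gene with a mean of 0.672 CPM outside the 20. Ugt2b34 (0.142), Ugt2b35 (0.163) and Ugt1a7c (0.201) lay below the median of all tested genes, and the other tested Ugt genes above it.

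The same pair stood apart in marker lists of colon position and cell type. Of 7 distal position genes 6 were lower in both than in any other library, and their sums were 146 and 143 CPM in the pair and 370 to 495 CPM elsewhere. Of 12 proximal position genes 8 were higher in both and 2 lower, with sums of 2937 and 3435 against 708 to 1704 CPM. Of 10 tuft cell markers 9 were higher in both (104 and 107 against 44.3 to 66.0 CPM), and of 12 T cell markers 7 (37.7 and 32.1 against 5.68 to 20.96 CPM). Absorptive colonocyte markers summed to 12042 and 12763 CPM in the pair against 5940 to 9999.9 CPM, but only 2 of 12 were higher in both and 3 were lower. Car1 alone made up 6179 and 6570 CPM of these sums in the pair, against 522 to 1941 CPM elsewhere. Over the 17 lists of position and cell type markers, the sums of both libraries lay above the others in 7, below in 3 and neither in 7. In goblet cell markers the pair lay at opposite ends. They summed to 31387 CPM in WT replicate 1 and 6987 CPM in Degs2_KO replicate 3, against 11595 to 28106 CPM elsewhere. These sums cover 8 of 10 goblet cell markers. They leave out Clca1 and Fcgbp, which had failed estimates and the highest means of the list over the libraries with a value. Smooth muscle markers were among the 7 lists above, with sums of 98.0 and 114 CPM against 56.5 to 96.1 CPM. Mylk made up 93.2 and 108 CPM of these in the pair, while 1 of 7 genes was higher in both and 2 were lower. Endothelial markers summed to 5.85 to 12.9 CPM over all libraries, with Emcn at 0 throughout. The part of position or cell makeup in the transferase levels was not tested.

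**Figure D4:**
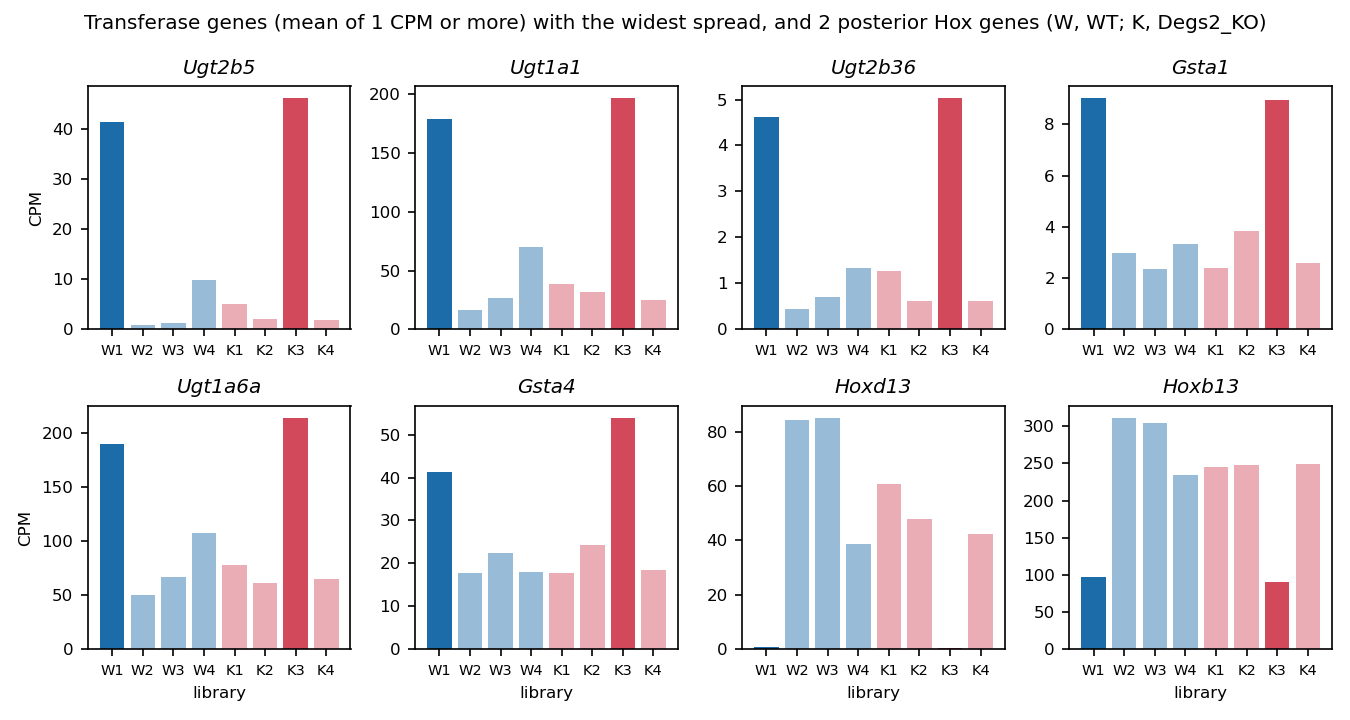
CPM per library, on axes from 0, of the 6 transferase genes with the widest spread among those with a mean of at least 1 CPM, and of the position genes Hoxd13 and Hoxb13. Darker bars are WT replicate 1 (W1) and Degs2_KO replicate 3 (K3): the transferases are highest and both Hox genes lowest in these 2 libraries, Hoxd13 at 0.695 and 0.30 CPM.

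The one member whose groups did not overlap was Gstp3 (chr19:4057477-4059569, minus strand), a pi-class glutathione transferase gene of low level. It was at 3.13, 3.09, 2.72 and 2.98 CPM in WT (2.98 ± 0.185, SD, n = 4) and at 1.97, 2.43, 2.03 and 1.96 CPM in Degs2_KO (2.099 ± 0.223, SD, n = 4). Each Degs2_KO library was below each WT library. The log2 fold change was -0.51 ± 0.15, a value 1.42-fold lower with a 95% interval of -0.84 to -0.17 on the log2 scale. The unadjusted p was 0.00758 and the adjusted p 0.9996 in edgeR's quasi-likelihood test, so the difference did not pass. Groups that did not overlap were found for 1 of 38 members (2.63%) and for 1.05% of all tested genes, so 1 such gene is no result about the families. Without WT replicate 1 and Degs2_KO replicate 3 its estimate stayed below 0, and over all alternatives it ranged from -0.58 to -0.46.

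In its neighbours Gstp1 and Gstp2 the groups overlapped. Gstp1, the major pi-class enzyme, was at 121, 74.1, 74.1 and 71.1 CPM in the WT libraries and at 75.2, 89.6, 122 and 70.3 CPM in the Degs2_KO libraries, with its highest values again in the pair. Its log2 fold change was 0.07 ± 0.22, and 0.11 ± 0.10 without the pair. Gstp2 was at 27.0 to 38.2 CPM, with a log2 fold change of -0.09 ± 0.12, and -0.16 ± 0.09 without the pair. Gstp1 and Gstp2 have 33.7% and 54.3% of their 50-base runs in common with other genes, chiefly each other, while Gstp3 has 0%. Whether the estimate for Gstp3 differed from those of its neighbours was not tested.

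The most abundant soluble glutathione transferases varied little between libraries. Gsto1 was at 391, 358, 327 and 358 CPM in the WT libraries and at 340, 324, 357 and 354 CPM in the Degs2_KO libraries, a log2 fold change of -0.06 ± 0.08 with a 95% interval of -0.24 to 0.13. Gstm1 was at 256, 240, 232 and 197 CPM in the WT libraries and at 196, 244, 274 and 214 CPM in the Degs2_KO libraries (0.005 ± 0.13, and -0.03 ± 0.12 without the pair). Gstm2, also of the mu class, lay between 91.6 and 101 CPM in all 8 libraries.

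The other mu-class genes lay between 9.26 and 62.5 CPM. Gstm3 was at 40.4 to 62.5 CPM, Gstm5 at 20.8 to 26.7, Gstm6 at 11.3 to 14.7, Gstm4 at 10.3 to 15.0 and Gstm7 at 9.26 to 11.3. Of the 50-base runs of Gstm3 28.8% also occur in other genes, and of those of Gstm1 18.9%. The estimate for Gstm5 was 0.08 ± 0.09 and that for Gstm6 -0.14 ± 0.10 on the log2 scale. Of the theta class, Gstt3 was at 52.8 to 60.2 CPM, Gstt2 at 26.6 to 34.3 and Gstt1 at 12.6 to 20.02. Gstk1, the mitochondrial and peroxisomal kappa enzyme, was at 27.0 to 38.8 CPM, and Gstz1, the maleylacetoacetate isomerase of tyrosine breakdown, at 26.9 to 35.9. Of the 20 tested Gst genes 9 had estimates above and 11 below 0, with a median of -0.03. The summed Gst level was 1128 ± 102 CPM over the WT and 1118 ± 113 CPM over the Degs2_KO libraries (SD, n = 4).

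Of the membrane-bound enzymes, Mgst3 was at 392, 324, 394 and 415 CPM in the WT libraries and at 432, 353, 435 and 313 CPM in the Degs2_KO libraries, with a log2 fold change of 0.01 ± 0.13. It made up 61.9% to 71.0% of the Mgst counts. Mgst2, which can make leukotriene C4, was at 82.6 to 144 CPM (-0.16 ± 0.21), and Mgst1, found in the endoplasmic reticulum and outer mitochondrial membrane, at 68.3 to 115 CPM (-0.13 ± 0.15). For all 3 the groups overlapped. The summed level was 598 ± 54.3 CPM over the WT and 579 ± 93.5 CPM over the Degs2_KO libraries (SD, n = 4).

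Of the 5 sulfotransferase genes with a mean of at least 1 CPM, 4 were of the Sult1 family. Sult1a1 was at 210, 254 and 320 CPM in WT replicates 2 to 4 and at 265, 227, 472 and 213 CPM in Degs2_KO. Its highest value was in Degs2_KO replicate 3, and the next, 320 CPM, in WT replicate 4. Over these 7 libraries the log2 fold change was 0.18 ± 0.29 (95% interval -0.48 to 0.84, adjusted p = 0.919 by edgeR), a fit that keeps Degs2_KO replicate 3 but not WT replicate 1. Without Degs2_KO replicate 3 the estimate was -0.15.

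Sult1d1, which acts on catecholamines, was at 324, 152, 228 and 281 CPM in the WT libraries and at 265, 167, 364 and 176 CPM in the Degs2_KO libraries (-0.02 ± 0.30, and -0.12 ± 0.25 without the pair). Sult1b1, which acts on thyroid hormones and phenols, was at 153, 165, 204 and 229 CPM in the WT libraries and at 206, 166, 168 and 165 CPM in the Degs2_KO libraries (-0.09 ± 0.14, and -0.15 ± 0.14 without the pair). These genes lie beside each other and close to the Ugt2 cluster, in chr5:87513339-87591594 together with Sult1e1, listed at 0. Their library patterns differed: Sult1d1 was highest in the pair, whereas Sult1b1 was at its lowest in WT replicate 1. Sult1c2 was at 33.7 to 63.8 CPM, highest in the pair, with a log2 fold change of -0.07 ± 0.24, and -0.15 ± 0.14 without the pair. Sult2b1, which sulfates cholesterol, was at 28.8 to 39.5 CPM with a log2 fold change of 0.07 ± 0.12. Of the 4 tested Sult genes 1 had an estimate above 0 and 3 below.

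Summed over the family, Ugt genes were at 1213 ± 284 CPM over the WT and 1241 ± 295 CPM over the Degs2_KO libraries, and Sult genes other than Sult1a1 at 513 ± 94.5 CPM and 497 ± 109 CPM (SD, n = 4). All members but Sult1a1 together took 0.295% to 0.427% of the normalized counts of a library. Of the 11 tested Ugt genes 9 had estimates above 0, with a median of 0.02, but this count rested on single libraries. It was 1 of 11 without WT replicate 2, 2 of 11 without Degs2_KO replicate 3, 5 of 11 without WT replicate 4 and 5 of 10 without both Degs2_KO replicate 3 and WT replicate 1.

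Genes of donor supply, export, conjugate breakdown, transcription factors and targets of such factors were examined as 8 lists. In these lists 0 genes passed an adjusted p of 0.05 in edgeR. Of 6 genes listed under UDP-glucuronic acid supply, 2 had estimates above and 4 below 0. Some of the 6, such as Slc35a3, are not specific to this donor. Ugdh, the UDP-glucose dehydrogenase that makes UDP-glucuronic acid, was at 757, 290, 400 and 458 CPM in the WT libraries and at 383, 300, 790 and 216 CPM in the Degs2_KO libraries (-0.17 ± 0.42, and -0.35 ± 0.23 without the pair), highest in the same pair as Ugt1a1 and Ugt2b5. Slc35a3, a nucleotide sugar transporter, was at 407 to 557 CPM, lowest in the pair (-0.04 ± 0.12, and -0.05 ± 0.11 without it).

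Of 12 genes of glutathione synthesis and recycling 10 had estimates above and 2 below 0, with a median of 0.05, and across the alternatives 4 to 12 were above 0. Txnrd1, a thioredoxin reductase, was at 223 to 303 CPM (0.06 ± 0.11), and Gsr, which reduces glutathione, at 123.4 to 159 CPM (0.04 ± 0.10). Of 9 genes of PAPS supply and sulfate uptake 4 were above and 5 below 0. The sulfate transporter Slc26a2 was at 992, 1697, 2122 and 1600 CPM in the WT libraries and at 1864, 1595, 875 and 1143 CPM in the Degs2_KO libraries, lowest in the pair, the reverse of Sult1d1. Its log2 fold change was -0.23 ± 0.28, and -0.23 ± 0.19 without the pair. The chloride and bicarbonate exchanger Slc26a3 was at 753 to 1307 CPM.

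All 10 export pump genes had estimates below 0, with a median of -0.16 beside -0.007 for all tested genes. In edgeR 0 of them had an unadjusted p under 0.05, and 7 to 10 were below 0 across the alternatives, all 10 without WT replicate 1 and Degs2_KO replicate 3. Abcb1a, the P-glycoprotein, was at 887, 580, 861 and 765 CPM in the WT libraries and at 787, 682, 961 and 395 CPM in the Degs2_KO libraries (-0.13 ± 0.25). Abcc3, which exports glucuronides, was at 372 to 584 CPM (-0.05 ± 0.19). The groups overlapped for both.

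Of 11 tested genes of conjugate breakdown 4 were above and 7 below 0. Lap3, a leucine aminopeptidase, had an unadjusted p of 0.006 and an adjusted p of 0.9996 in edgeR, with a log2 fold change of 0.31 ± 0.09. It was at 72.6, 79.7, 67.5 and 63.2 CPM in the WT libraries and at 88.8, 92.5, 82.9 and 85.9 CPM in the Degs2_KO libraries, and the groups did not overlap. In edgeR 1 of the 11 genes had an unadjusted p under 0.05, against 1.13% of all tested genes. Groups did not overlap for 1.05% of all tested genes, so Lap3 alone is no result about the list. Dpep1, a dipeptidase that acts on cysteinylglycine conjugates, was at 178 to 401 CPM.

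Of 16 tested transcription factor genes 6 were above and 10 below 0. Nfe2l2, which encodes the antioxidant factor Nrf2, was at 236 to 377 CPM (0.05 ± 0.16), and Hnf4a, with failed estimates in WT replicates 3 and 4, at 962 to 1182 CPM in the other libraries. Of 16 Nrf2 target genes outside the transferase families 13 were above and 3 below 0, and across the alternatives between 1 and 12 were below. Txnrd1, Gclc, Gclm, Slc7a11 and G6pdx are also in the list of glutathione synthesis and recycling, so the counts of these lists are not separate. Nqo1 is also in the list of Ah receptor targets. The ferritin genes Fth1 (782 to 1497 CPM) and Ftl1 (269 to 454 CPM) were both highest in Degs2_KO replicate 3 and WT replicate 1. For Fth1 the log2 fold change was -0.12 ± 0.21, and -0.25 ± 0.10 without these libraries, and for Ftl1 0.02 ± 0.18 and -0.005 ± 0.10. Only 2 Ah receptor targets were tested. Cyp1a1, Cyp1a2, Cyp1b1, Ahrr and Aldh3a1 fell under the filter on low counts, and none was above 0.221 CPM, the highest value of Ahrr. Nqo1, a quinone reductase, was at 75.0, 29.7, 29.1 and 29.1 CPM in the WT libraries and at 35.8, 33.8, 76.0 and 21.5 CPM in the Degs2_KO libraries (0.04 ± 0.44, and 0.05 ± 0.18 without the pair), again highest in the pair, and Tiparp was at 24.3 to 32.1 CPM.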

How the data were processed

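The submitters' processing notes name Cuffdiff, Cufflinks 2.1.1, TopHat2 2.0.10 and cutadapt 1.9, and mm10 (GRCm38) as the build. The sources used here give no annotation, strand setting or order of steps. Values deposited by the authors are estimated counts, fragments assigned to a gene in a library and scaled by 1 factor per library, each with a status word. The status FAIL or HIDATA marks a failed estimate. It was found in 47 genes, which were treated as missing. Of the per-sample columns, 24 were not used. Symbols were found for 54074 of 54141 IDs, and 8 pseudogenes with names like those of members were left out.

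Estimated counts were rounded and compared with edgeR 4.0.16 (R 4.3.3): filterByExpr (minimum count 10, minimum total 15), TMM, and the 2-sided quasi-likelihood F test with genotype as the only term, Benjamini-Hochberg adjusted over 16132 genes at 0.05. Log2 CPM used a prior count of 2. Log2 fold changes had a median standard error of 0.161. Alternatives were other size factors, DESeq2 1.42.0, limma-voom (limma 3.58.1), other filters, blocks, omitted libraries and undone scaling. The fit of Sult1a1 over 7 libraries and the counts and fold changes of pathway genes, Gstp1 and Sult1c2 under alternatives were added after seeing the data.

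Named were all members with a mean of 1 CPM, with fold changes for the 3 highest per kilobase in each family and the 5 with the smallest p per direction, the 6 with the widest spread, and 2 genes per list by level. The members and lists were chosen with earlier results of these data known. Exon lengths and coordinates are from GENCODE M21, sequences from RefSeq (GRCm38.p6), which had a window for 54 members. Shared runs of 50 bases were counted in GENCODE M21 transcripts.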

Additional observations from a re-analysis of the deposited data

Results flagged for a closer look

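In 11 of 67 groups of 4 libraries, 1 library of a member with a mean of at least 1 CPM lay far from the other 3 by Dixon's test at 95%, which chance gives in about 1 of 20 groups. In WT replicate 1 these were Gsta1 at 9.036 CPM (others at most 3.33), Gstm3 at 60.912 CPM (others at most 44.4) and Gstp1 at 120.7 CPM (others at most 74.1). In Degs2_KO replicate 3 they were Ugt2b5 at 46.168 CPM (others at most 4.99), Ugt1a1 at 196.9 CPM (others at most 38.3), Ugt1a6a at 214.4 CPM (others at most 78.2), Ugt2b36 at 5.037 CPM (others at most 1.26) and Sult1c2 at 63.845 CPM (others at most 37.4). The other 3 were Gstt1 at 20.017 CPM in WT replicate 3, Sult1b1 at 205.6 CPM in Degs2_KO replicate 1 and Gstp3 at 2.431 CPM in Degs2_KO replicate 2, each the highest of its group. WT replicate 1 and Degs2_KO replicate 3 thus held 8 of the 11. The same share over all tested genes is not given here, so these counts are no result about the members.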

How the results depend on the processing

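Adjusted calls among members stayed at 0 under all 17 alternatives. Over all genes DESeq2 called 2. Members at an unadjusted p under 0.05 numbered 3 with no filter (Gstp3, Ugt1a8 and Ugt1a9), 0 with a block on adjoining ID numbers and 1, Gstp3, otherwise. Degs2_KO replicate 2 and WT replicate 4 stood alone in their ID blocks, so they added nothing to the genotype estimates of that fit. Its log2 fold change for Gstp3 was -0.58 ± 0.24 (SE). Over all genes the count of 183 became 401 with no filter, 99 with the replicate block, 79 with the ID block, 650 without WT replicate 1 and Degs2_KO replicate 3 together, and 133 to 782 with 1 library left out. Of 388 alternative values 60 changed the sign of an estimate, in 14 of 23 members, and none moved an adjusted p past 0.05. The cause of these changes was not tested. Deviations from the genotype means, over all tested genes, correlated at -0.42, 0.44, -0.56 and -0.10 between same-numbered libraries. Such deviations sum to 0 within a genotype, and WT replicate 1 and Degs2_KO replicate 3 stand apart. The correlations therefore cannot decide whether the numbers pair the libraries. With the replicate block the log2 fold change was -0.0304 for Ugt1a1, -0.2102 for Ugt2b5, -0.0033 for Ugt2b36, -0.0024 for Gsta1 and -0.0282 for Ugt1a6a. With the ID block it was -0.1031 for Gstm1, 0.1889 for Sult1d1, 0.0478 for Sult1b1, -0.2197 for Gsta3 and -0.0454 for Gsta1. The stricter filter gave -0.0032 for Ugt1a1, -0.0019 for Mgst3, -0.0028 for Gstm1 and -0.0066 for Gsta1, and limma-voom -0.0004 for Mgst3, -0.0015 for Gsta1 and -0.0059 for Ugt1a6a. Without WT replicate 1 and Degs2_KO replicate 3 it was -0.2331 for Ugt1a1, -0.0425 for Mgst3, -0.0259 for Gstm1, -0.4175 for Ugt2b5 and -0.1279 for Ugt1a6a. With 1 library left out the range was -0.0172 to 0.1181 for Ugt2b34, -0.0843 to 0.1479 for Ugt1a7c, -1.1934 to 0.9794 for Ugt1a1, -0.0629 to 0.0937 for Mgst3, -0.0842 to 0.0870 for Gstm1, -0.2809 to 0.1504 for Sult1d1, -0.1715 to 0.0171 for Sult1b1, -0.0273 to 0.3765 for Gsta3, -0.3029 to 0.5673 for Gsta4, -2.152 to 1.801 for Ugt2b5, -1.0884 to 1.2077 for Ugt2b36, -0.5953 to 0.6252 for Gsta1, -0.6005 to 0.4982 for Ugt1a6a and -0.1488 to 0.3471 for Sult1a1. A count of 0 allows up to 0.0948 CPM in the shallowest library, WT replicate 1.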
